A study of Mus musculus with 48 samples.

Results

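The genes described here carry the insulin signal from its receptor to glucose uptake and the entry of glucose into glycolysis: Insr, Irs1, Irs2, Pik3r1, Akt2, Foxo1, Slc2a4, Slc2a1, Hk2 and Pfkfb3. They were taken by symbol, and 10 of 10 matched 1 row each among the 47729 gene rows of the count table. All 10 passed the filter on low counts in each depot. Poly(A) RNA was sequenced from brown adipose tissue (BAT), subcutaneous fat (SFAT) and visceral fat (EFAT) of male mice that were Cth+/+ or Cth-/-. Cth encodes cystathionine gamma-lyase, which carries out the last step of cysteine synthesis from methionine. The mice were fed for 6 days either a control diet (CTRL) or a diet deficient in cystine (CysF), the dimer in which cysteine is eaten. Depot, genotype and diet gave 12 groups of 4 libraries, 48 in all. The label of the knockout names no driver or floxed allele. The sources used here give neither strain nor age. Nothing in the labels says that libraries of a group are from separate mice, so the p-values measure the spread between libraries.

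Insulin binds its receptor, the tyrosine kinase encoded by Insr, which phosphorylates the adaptor proteins IRS1 and IRS2. These recruit phosphoinositide 3-kinase, whose main regulatory subunit is encoded by Pik3r1, and the lipid it makes activates the kinase AKT2. In fat cells AKT2 sends vesicles carrying the glucose transporter GLUT4 (Slc2a4) to the surface and keeps the transcription factor FOXO1 out of the nucleus, whereas GLUT1 (Slc2a1) carries glucose without insulin. Hexokinase 2 (Hk2) traps the glucose as glucose 6-phosphate, and Pfkfb3 encodes an enzyme that makes fructose 2,6-bisphosphate, an activator of glycolysis. FOXO factors are known to raise transcription of Insr and Irs2 when insulin signalling is low.

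In the GENCODE annotation of mouse build GRCm38, each of the 10 is a protein-coding gene. Insr spans chr8:3122061-3279617 and Irs2 chr8:10984681-11008458, both on the minus strand. Irs1 spans chr1:82233101-82291416 and Pik3r1 chr13:101680563-101768217, both on the minus strand. Akt2 (chr7:27591552-27640826), Foxo1 (chr3:52268336-52353221) and Slc2a1 (chr4:119108711-119137983) lie on the plus strand. Slc2a4 (chr11:69942539-69948188), Hk2 (chr6:82725025-82774454) and Pfkfb3 (chr2:11471433-11554077) lie on the minus strand. Irs1, Irs2, Foxo1 and Slc2a1 share exon bases with a gene on the other strand, and those neighbours held at most 0.115% as many counts as the member.

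Promoter sequence from RefSeq (build GRCm38.p6) was found for 8 of the 10 members, in 13 entries. Insr and Slc2a4 had no entry, so their promoters were not searched. The 250 bases before the start were searched on both strands for 6 short motifs. The core of the hypoxia response element, ACGTG, was present for 6 members (Akt2, Hk2, Irs1, Irs2, Pfkfb3 and Slc2a1). By entry, it was in 7 of the 13 member entries and in 16.6% of all 32851 promoters. The E-box CACGTG, which contains that core, was present for Irs1, Irs2 and Pfkfb3, in 3 of the 13 member entries and in 6.02% of all promoters. The FOXO core GTAAACA, the glucocorticoid receptor core AGAACA and the cAMP element TGACGTCA were found in none of the 13 member entries, against 3.17%, 16.1% and 1.55% of all promoters. The GC box GGGCGG was present for 8 members, in 9 of the 13 member entries and in 32.7% of all promoters. The promoters of Hk2, Irs2 and Pfkfb3 are shown because these genes gave large differences between groups in the data below, written 5′ to 3′ on the gene's strand, with the hypoxia core or E-box in capitals. The Hk2 run is chr6:82774455-82774704, the Irs2 run chr8:11008930-11009179 and the Pfkfb3 run chr2:11502102-11502340, each on the minus strand, and the last precedes a start inside the gene. The Irs2 run precedes a RefSeq start that lies outside the GENCODE gene, whose minus-strand span begins at chr8:11008458.
Hk2: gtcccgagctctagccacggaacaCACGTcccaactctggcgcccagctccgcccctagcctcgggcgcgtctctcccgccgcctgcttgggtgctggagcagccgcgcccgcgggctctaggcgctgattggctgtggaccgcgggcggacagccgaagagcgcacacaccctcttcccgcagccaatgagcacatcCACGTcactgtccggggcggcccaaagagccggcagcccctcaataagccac
Irs2: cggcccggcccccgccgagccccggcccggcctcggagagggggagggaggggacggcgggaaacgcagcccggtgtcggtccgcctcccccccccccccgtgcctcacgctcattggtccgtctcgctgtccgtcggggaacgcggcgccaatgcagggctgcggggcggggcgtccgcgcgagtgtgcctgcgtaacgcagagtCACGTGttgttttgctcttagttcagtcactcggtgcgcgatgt
Pfkfb3: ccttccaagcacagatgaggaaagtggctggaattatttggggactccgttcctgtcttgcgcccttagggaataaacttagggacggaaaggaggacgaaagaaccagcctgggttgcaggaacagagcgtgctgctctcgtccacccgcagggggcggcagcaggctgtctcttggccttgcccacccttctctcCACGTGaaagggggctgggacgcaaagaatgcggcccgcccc
The Hk2 run holds the core at positions -226 and -52 from the start, the Irs2 run an E-box at -44 and the Pfkfb3 run an E-box at -53. The counts are per gene and do not tell which start was used.

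Library totals ranged from 22067580 to 46031118 expected counts in BAT, from 16245832 to 39001462 in SFAT and from 18711900 to 36110293 in EFAT. Cth lay between 0.291 and 14.4 CPM (counts scaled to library size) in the 24 Cth+/+ libraries and at or under 0.203 CPM in the 24 Cth-/- libraries. Among the members the lowest count in any library was 78, for Slc2a1 in BAT, and each other member had over 100 counts in every library. In SFAT, replicate 20 (Cth-/- CysF) held 31.3% mitochondrial counts against 7.05% to 14.4% in the other libraries of that depot (21.8% to 45.7% in BAT), and replicate 14 (Cth-/- CTRL) held the most B cell marker reads of its group. A pseudogene, Gm43512, was detected at 0.1 CPM or more in 21 of the 48 libraries, and what separates those libraries is not given in the labels. In EFAT this split was uneven: 3 of 4 Cth-/- CysF libraries and 1 of 4 Cth-/- CTRL libraries had the pseudogene, as did 3 of 4 Cth+/+ CTRL and 0 of 4 Cth+/+ CysF libraries. The genotype comparison on the CysF diet in EFAT thus set 3 of 4 libraries with it against 0 of 4. The members' EFAT calls for diet and genotype are also given below with the split as a term or within it. The EFAT calls of the gene lists were not tested in that way. Over all genes, the split as a term took the diet calls in Cth-/- EFAT from 4976 to 3117.

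In Cth+/+ mice on the control diet the glucose transporter and hexokinase genes led the list in BAT, and Pfkfb3 led it in both white depots. Per kilobase of merged exons, Slc2a4 had the highest level in BAT, at 107.1 ± 6.82 CPM (mean ± SD, n = 4), followed by Hk2 at 85.1 ± 8.58, Akt2 at 35.9 ± 1.89 and Pfkfb3 at 20.7 ± 6.99. Pik3r1 (10.6 ± 1.87), Insr (5.66 ± 0.544), Foxo1 (4.37 ± 0.607), Irs1 (3.48 ± 0.768) and Irs2 (3.37 ± 3.47) came next, and Slc2a1 was last at 1.08 ± 0.124 CPM per kilobase. The libraries of Slc2a4, Hk2, Akt2, Pfkfb3 and Pik3r1 did not overlap with their neighbours in this order, whereas Insr overlapped with Foxo1, and Foxo1, Irs1 and Irs2 with each other. Irs2 ranged from 0.71 to 8.32 CPM per kilobase, which covers Insr (5.09 to 6.18) and Slc2a1 (0.92 to 1.19). In SFAT the order began with Pfkfb3 at 102 ± 15.5 CPM per kilobase, Slc2a4 at 82.2 ± 9.08 and Akt2 at 54.9 ± 2.95, where the libraries of Pfkfb3 and Slc2a4 overlapped. In EFAT it began with Pfkfb3 at 130.8 ± 27.0 CPM per kilobase, Akt2 at 58.1 ± 8.92 and Slc2a4 at 55.8 ± 15.5, and these last values overlapped. Slc2a1 had the lowest mean in each depot, although its libraries overlapped with those of Irs2 in BAT and SFAT. The ranks were the same per kilobase of the longest transcript.

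Between depots in that group, Hk2, Slc2a4 and Akt2 were higher in BAT than in either white depot and Pfkfb3, Pik3r1 and Slc2a1 were lower. Against SFAT the log2 differences in level were 2.37 ± 0.32 (SE) for Hk2, 1.46 ± 0.24 for Slc2a4, 0.46 ± 0.12 for Akt2, -1.23 ± 0.26 for Pfkfb3, -0.69 ± 0.25 for Pik3r1 and -0.47 ± 0.18 for Slc2a1, with adjusted p from 3.7e-08 to 0.03 (edgeR quasi-likelihood test). Against EFAT they were 2.73 for Hk2, 2.15 for Slc2a4, 0.51 for Akt2, -1.45 for Pfkfb3, -0.77 for Slc2a1 and -0.66 for Pik3r1, and Foxo1 was lower too, at -0.46. Thus 6 and 7 of 10 members passed the threshold of adjusted p under 0.05, where 53% and 60% of all genes did. Between SFAT and EFAT only Slc2a4 passed, higher in SFAT by 0.69 ± 0.24 (adjusted p = 0.044), against 15.2% of all genes. These BAT levels rest on the scaling of libraries: with library totals in place of TMM factors the median of all genes fell by about 1 log2 unit in both comparisons (-1.03 for BAT against EFAT), and Akt2 was then lower in BAT, by -0.55 against SFAT and by -0.51 against EFAT. With library totals Insr, which did not differ detectably under TMM, was lower in BAT by -1.16 against each white depot (adjusted p = 5.2e-07 and 4.5e-07). Irs1 was then lower in BAT too, at -1.33 against SFAT (adjusted p = 0.00011) and -0.85 against EFAT (adjusted p = 0.0076), as was Foxo1 against SFAT at -1.29 (adjusted p = 2e-07). Hk2 and Slc2a4 remained higher in BAT with library totals, although Slc2a4 against SFAT lost the call (0.45, adjusted p = 0.14).

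**Figure D1:**
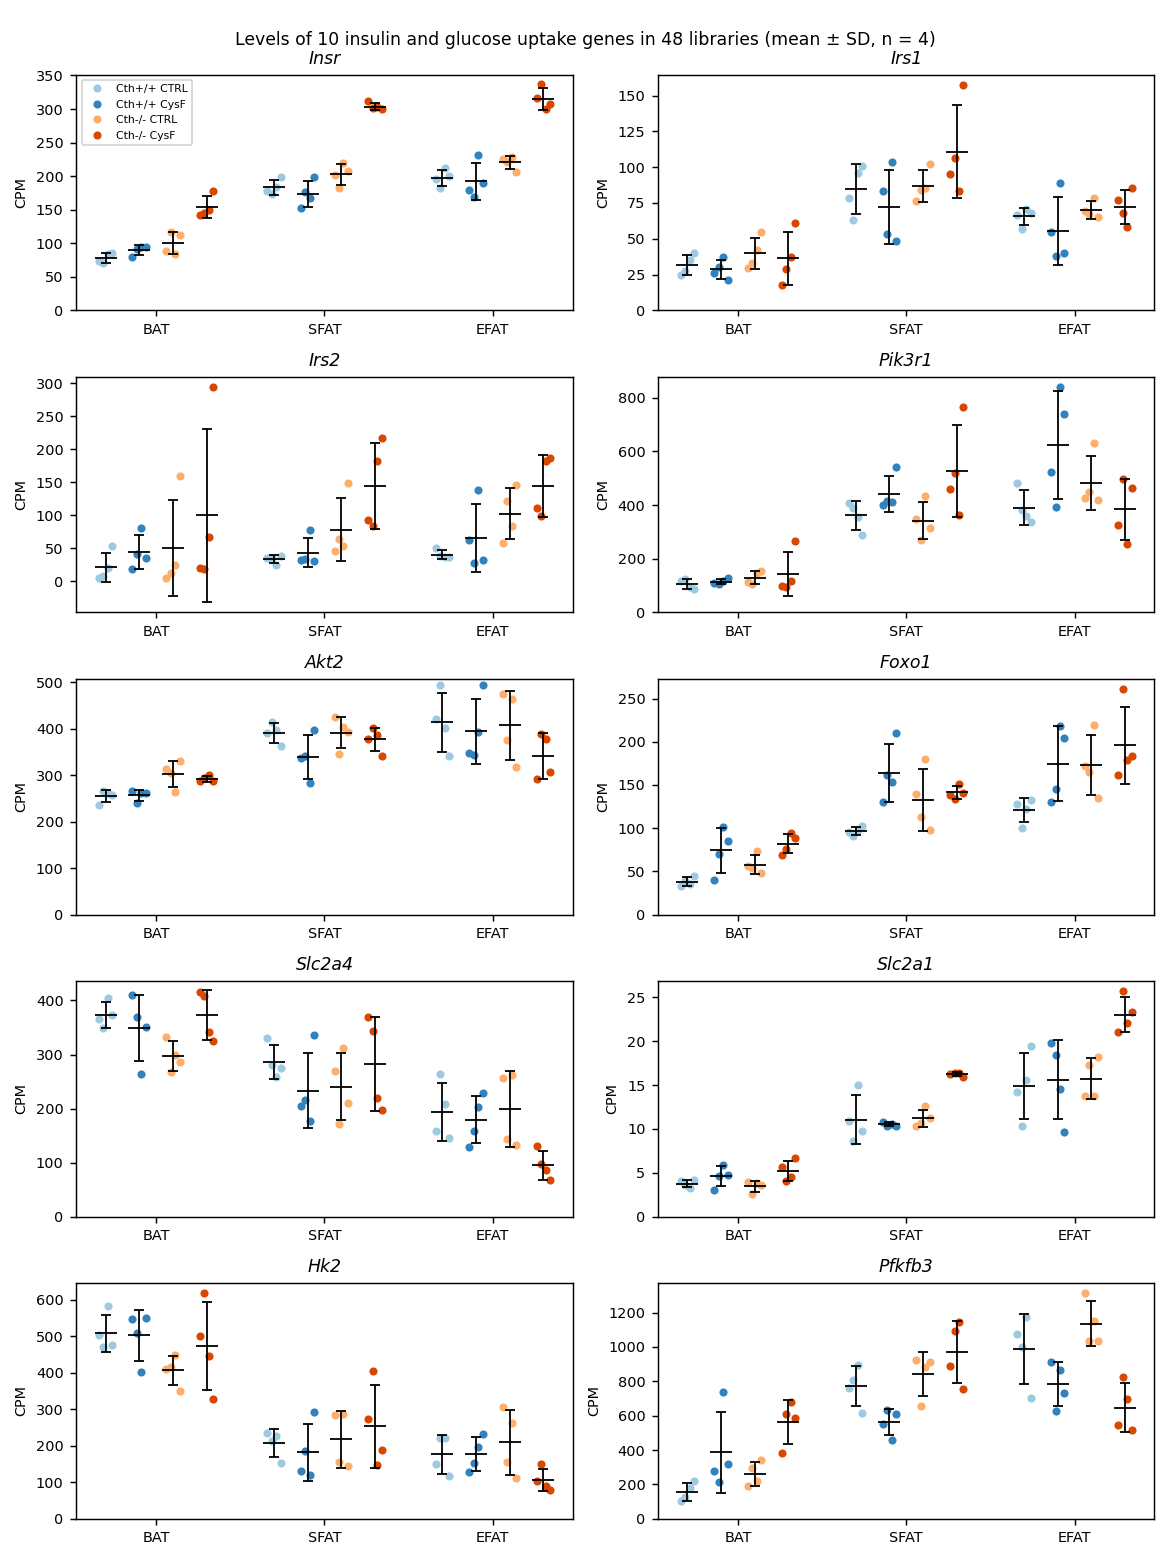
Each panel plots the TMM-scaled level of 1 gene in CPM (linear axis) for the 12 groups, ordered by depot; points are libraries, bars the mean ± SD of 4. Levels were scaled within each depot, so heights compare groups of a depot. Insr in the Cth-/- CysF libraries (143 to 178 CPM in BAT, 299 to 312 in SFAT, 300 to 338 in EFAT) lies above every other library of its depot.

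The insulin receptor gene rose with the CysF diet in Cth-/- mice in each of the 3 depots. In BAT, Insr was at 88.6, 116, 83.4 and 112 CPM in the Cth-/- CTRL libraries and at 143, 145, 149 and 178 CPM in the Cth-/- CysF libraries. In SFAT it was at 202, 182, 220 and 208 CPM on the control diet and at 312, 302, 302 and 299 CPM on the CysF diet. In EFAT the values were 225, 221, 229 and 206 CPM on the control diet and 316, 338, 300 and 307 CPM on the CysF diet. The groups did not overlap in any depot. The log2 changes were 0.62 ± 0.12 in BAT (adjusted p = 0.0028), 0.58 ± 0.09 in SFAT (adjusted p = 0.00043) and 0.52 ± 0.10 in EFAT (adjusted p = 0.0016). In Cth+/+ mice the same diet changed Insr by 0.21 ± 0.12, -0.08 ± 0.09 and -0.04 ± 0.10, none past the threshold. The difference between these diet responses, the interaction of genotype and diet, was 0.66 ± 0.13 in SFAT (adjusted p = 0.0029), 0.56 ± 0.13 in EFAT (adjusted p = 0.022) and 0.41 ± 0.17 in BAT (adjusted p = 0.16). The EFAT interaction was lost without replicate 4, 7, 8 or 17 (adjusted p up to 0.64 over 24 alternatives). It was also lost with the pseudogene split as a term, without the filter on low counts and with library totals. With library totals as the scaling the diet change in Cth-/- mice was 0.64 in BAT (adjusted p = 0.18) and 0.38 in SFAT (adjusted p = 0.054). In SFAT that scaling moved the median of all genes by -0.20. Within the pseudogene split the EFAT change was 0.47 and 0.55, each resting on 1 library of a group (adjusted p = 0.34 and 0.13).

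In whole fat a change can come from the cells' RNA or from the mix of cells: fewer cells of a type and less RNA per cell cannot be told apart. Beside the Insr result, summed adipocyte markers (10 of 10 detected, none at 0) ranged from 7124 to 7843 CPM in Cth-/- CTRL BAT and from 7394 to 8436 CPM in Cth-/- CysF BAT. In SFAT they ranged from 17890 to 21670 CPM on the control diet and from 22930 to 30570 CPM on the CysF diet, and in EFAT from 22660 to 28220 and from 20230 to 24010 CPM. Fibroblast and preadipocyte markers were lower with the diet in Cth-/- mice, with 10, 11 and 8 of 12 genes called lower in BAT, SFAT and EFAT (1 was called higher in EFAT), and their sums did not overlap in any depot: 532 to 698 against 189 to 228 CPM, 6546 to 17710 against 1811 to 2302 CPM, and 4230 to 5366 against 2929 to 3183 CPM. Macrophage markers were called lower for 9, 8 and 8 of 13 genes. Brown adipocyte marker sums in BAT did not overlap, at 2698 to 4278 CPM on the control diet and 6416 to 7710 CPM on the CysF diet, with 1 of 9 genes called higher. B cell marker sums did not overlap either, at 160 to 669 CPM against 41.9 to 107 CPM in SFAT (10 of 10 called lower) and at 214 to 1008 CPM against 45.2 to 57.7 CPM in EFAT (1 of 10 called lower). The part of these shifts in the members' changes was not tested.

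The adaptor gene Irs2 was higher in Cth-/- than in Cth+/+ mice on the CysF diet in both white depots. In SFAT it was at 32.8, 33.1, 76.9 and 30.2 CPM in Cth+/+ CysF libraries and at 93.0, 84.1, 181 and 217 CPM in Cth-/- CysF libraries, which did not overlap, a log2 difference of 1.74 ± 0.41 (adjusted p = 0.0039). In EFAT it was at 63.0, 27.5, 138 and 31.3 CPM against 111, 97.9, 182 and 186 CPM, groups that overlapped, a difference of 1.15 ± 0.44 (adjusted p = 0.048) that passed in 3 of 17 alternative analyses and was lost without replicate 7, 8, 11, 16, 18 or 20 (adjusted p up to 0.65 over the alternatives). On the control diet the genotype difference was of like size, 1.23 in SFAT and 1.35 in EFAT, with no overlap between groups, but did not pass (adjusted p = 0.37 and 0.68). Irs2 had the highest coefficient of variation of the members in 3 of the 4 BAT groups (in Cth+/+ CysF it was 59.1%, below Pfkfb3 at 61.4%), and Cth-/- CysF libraries read 20.1, 18.7, 67.4 and 293 CPM and Cth-/- CTRL libraries 5.18, 11.7, 24.6 and 159 CPM. The high libraries carried the same replicate numbers in each depot: number 15 was highest among the Cth-/- CTRL libraries, numbers 18 and 20 were the highest pair among the Cth-/- CysF libraries, and number 10 was highest among the Cth+/+ CysF libraries. The labels do not say that equal numbers are the same mouse.

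Irs1, the other adaptor, passed the threshold in no comparison of diet or genotype. Its closest approach was the genotype difference on the CysF diet in SFAT, 0.62 ± 0.24 (adjusted p = 0.053), and its group means ran from 28.7 to 39.7 CPM in BAT, 72.0 to 111 CPM in SFAT and 55.4 to 72.2 CPM in EFAT. Pik3r1, which encodes the p85 alpha regulatory subunit, rose with the diet in Cth-/- SFAT, from 349, 272, 434 and 315 CPM to 462, 518, 364 and 767 CPM. The groups overlapped, and the change of 0.62 ± 0.20 (adjusted p = 0.036) was lost when any of replicates 12, 13, 15, 17 or 20 was left out (adjusted p up to 0.12 over 19 alternatives). In EFAT on the CysF diet Pik3r1 was lower in Cth-/- mice, at 325, 496, 254 and 462 CPM, than in Cth+/+ mice, at 523, 393, 840 and 739 CPM. That difference was -0.70 ± 0.25 (adjusted p = 0.038), the groups overlapped, and it was lost without replicate 10, 11 or 18 (adjusted p up to 0.31 over 17 alternatives).

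Akt2, the kinase that drives GLUT4 vesicles to the surface in fat cells, passed in no comparison of diet or genotype. Its diet response in Cth-/- mice was -0.05 ± 0.08 in BAT, -0.06 ± 0.11 in SFAT and -0.25 ± 0.16 in EFAT. Foxo1, the transcription factor that AKT holds in check, had its largest diet values in Cth+/+ mice: 0.97 ± 0.22 in BAT (adjusted p = 0.11), 0.77 ± 0.16 in SFAT (adjusted p = 0.077) and 0.54 ± 0.19 in EFAT (adjusted p = 1), none of them past the threshold. In SFAT, Foxo1 was at 95.4, 90.8, 97.6 and 103 CPM in Cth+/+ CTRL libraries and at 131, 162, 154 and 210 CPM in Cth+/+ CysF libraries, with no overlap. The Cth-/- libraries there read 140, 113, 180 and 98.4 CPM on the control diet and 139, 134, 152 and 141 CPM on the CysF diet. The interaction in SFAT was -0.68 ± 0.23 (adjusted p = 0.047), so the diet response of Foxo1 was lower in Cth-/- than in Cth+/+ mice, but the call held in 7 of 25 alternatives and, of 16 single omissions, only without replicate 7, 13 or 15 (adjusted p up to 0.087).

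The insulin-responsive transporter gene Slc2a4 fell with the CysF diet in EFAT of Cth-/- mice and in no other depot. It was at 257, 144, 262 and 132 CPM in Cth-/- CTRL EFAT and at 131, 96.9, 85.9 and 67.1 CPM in Cth-/- CysF EFAT. The groups met without overlap, at 132 and 131 CPM, and the log2 change was -1.06 ± 0.28 (adjusted p = 0.012). In BAT the values were 333, 268, 300 and 286 CPM on the control diet and 415, 409, 341 and 326 CPM on the CysF diet, a change of 0.33 ± 0.13 (adjusted p = 0.086). In SFAT they were 269, 171, 312 and 210 CPM and 369, 344, 219 and 197 CPM, a change of 0.23 ± 0.24 (adjusted p = 0.52). The response in EFAT differed from that in BAT by -1.45 ± 0.34 (adjusted p = 0.0036) and from that in SFAT by -1.34 ± 0.34 (adjusted p = 0.019). The latter was lost when replicate number 12, 14 or 17 was left out in all depots together (adjusted p up to 0.14 over 17 alternatives). The genotype by diet interaction of Slc2a4 in EFAT was -0.95 ± 0.39 and did not pass (adjusted p = 0.12). On the CysF diet Slc2a4 was also lower in Cth-/- than in Cth+/+ EFAT, by -0.92 ± 0.28 (adjusted p = 0.018), in groups that overlapped, and this was lost without replicate 11 or 20 (adjusted p up to 0.57 over 17 alternatives). With the pseudogene split as a term the EFAT diet change was -0.80 and did not pass (adjusted p = 0.06). Within the split it was -0.78 and -0.72, each resting on 1 library of a group. Epithelial and epididymal markers moved with it: 2 of 7 tested genes were called higher, and their sums ranged from 9.13 to 184 CPM in Cth-/- CTRL EFAT, where Lcn5 was at 0, and from 116 to 700 CPM in Cth-/- CysF EFAT. With that marker score as a covariate, Slc2a4 changed by -0.73 (adjusted p = 0.049).

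Slc2a1, the insulin-independent transporter gene, rose with the diet in Cth-/- SFAT. In SFAT it was at 10.3, 10.6, 12.6 and 11.3 CPM in Cth-/- CTRL libraries and at 16.3, 16.4, 16.4 and 15.9 CPM in Cth-/- CysF libraries. In EFAT it was at 13.7, 17.3, 13.7 and 18.2 CPM and at 21.0, 25.7, 22.1 and 23.4 CPM, and in BAT at 3.92, 2.56, 3.80 and 3.56 CPM and at 5.63, 4.11, 4.47 and 6.65 CPM. No depot's groups overlapped. The change was 0.54 ± 0.13 in SFAT (adjusted p = 0.0085), 0.55 ± 0.21 in EFAT (adjusted p = 0.064) and 0.59 ± 0.20 in BAT (adjusted p = 0.051), so SFAT alone passed, and the responses did not differ detectably between depots (differences from -0.10 to -0.04). The SFAT interaction was 0.61 ± 0.19 (adjusted p = 0.033), which passed in 11 of 25 alternatives and in 6 of 16 single omissions (lost without replicate 1, 7, 8, 10, 12, 13, 15, 16, 17 or 18; adjusted p up to 0.38). With library totals the SFAT diet change was 0.34 (adjusted p = 0.23). On the CysF diet Slc2a1 was higher in Cth-/- than in Cth+/+ SFAT by 0.63 ± 0.14 (adjusted p = 0.002) and EFAT by 0.56 ± 0.21 (adjusted p = 0.048), the latter passing in 4 of 17 alternatives and, of 8 single omissions, only without replicate 7 (adjusted p up to 0.56).

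Hk2, which commits glucose to metabolism inside the cell, fell beside Slc2a4 in Cth-/- EFAT. It went from 305, 157, 263 and 112 CPM to 105, 150, 90.1 and 79.5 CPM, groups that overlapped, a change of -0.98 ± 0.32 (adjusted p = 0.032). The changes in BAT and SFAT were 0.22 ± 0.16 and 0.21 ± 0.34, and the EFAT response was below that of BAT by -1.27 ± 0.43 (adjusted p = 0.037). That difference was lost when replicate number 12, 14, 16, 17, 18 or 20 was left out in all depots together (adjusted p up to 0.17 over 17 alternatives). The EFAT change depended on the libraries: it was -1.23 without the pseudogene, -0.13 with it, and was lost without replicate 12, 14, 18 or 20 (adjusted p up to 0.93 over 18 alternatives). With the epididymal marker score as a covariate the Hk2 change in EFAT was -0.61 and did not pass (adjusted p = 0.12). Slc2a4 and Pfkfb3 kept their EFAT calls in all 8 such omissions.

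Pfkfb3 changed in opposite directions in brown and visceral fat. In BAT of Cth-/- mice it rose from 190, 297, 218 and 339 CPM to 383, 612, 679 and 589 CPM. In EFAT it fell from 1312, 1036, 1154 and 1035 CPM to 548, 826, 696 and 514 CPM. Neither pair of groups overlapped. The log2 changes were 1.11 ± 0.34 in BAT (adjusted p = 0.034) and -0.81 ± 0.19 in EFAT (adjusted p = 0.0061). With the pseudogene split as a term the Pfkfb3 change in EFAT was -0.77 (adjusted p = 0.027), and within the split, with 1 library in a group, it was -1.11 and -0.67 and did not pass (adjusted p = 0.21 and 0.42). The BAT and EFAT responses differed by -1.98 ± 0.36 (adjusted p = 0.00029), a difference that passed in 17 of 17 alternatives. In SFAT the diet change in Cth-/- mice was 0.20 ± 0.17 (adjusted p = 0.41). In Cth+/+ BAT Pfkfb3 was at 102, 125, 177 and 220 CPM on the control diet and at 281, 212, 737 and 318 CPM on the CysF diet, a change of 1.31 ± 0.34 that did not pass (adjusted p = 0.17), and the BAT interaction was -0.19 ± 0.48 (adjusted p = 0.85). On the CysF diet Pfkfb3 was higher in Cth-/- than in Cth+/+ SFAT by 0.78 ± 0.17 (adjusted p = 0.0018), with no overlap. In BAT the rise came with lower skeletal muscle markers: 12 of 18 were called lower, none was at 0, and their sums ranged from 154 to 1126 CPM in Cth-/- CTRL and from 24.8 to 192 CPM in Cth-/- CysF libraries. With a muscle score as a covariate the BAT change was 0.89 (adjusted p = 0.34), and it was also lost without replicate 12, 14, 17, 18 or 20 (adjusted p up to 0.34 over 18 alternatives).

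**Figure D2:**
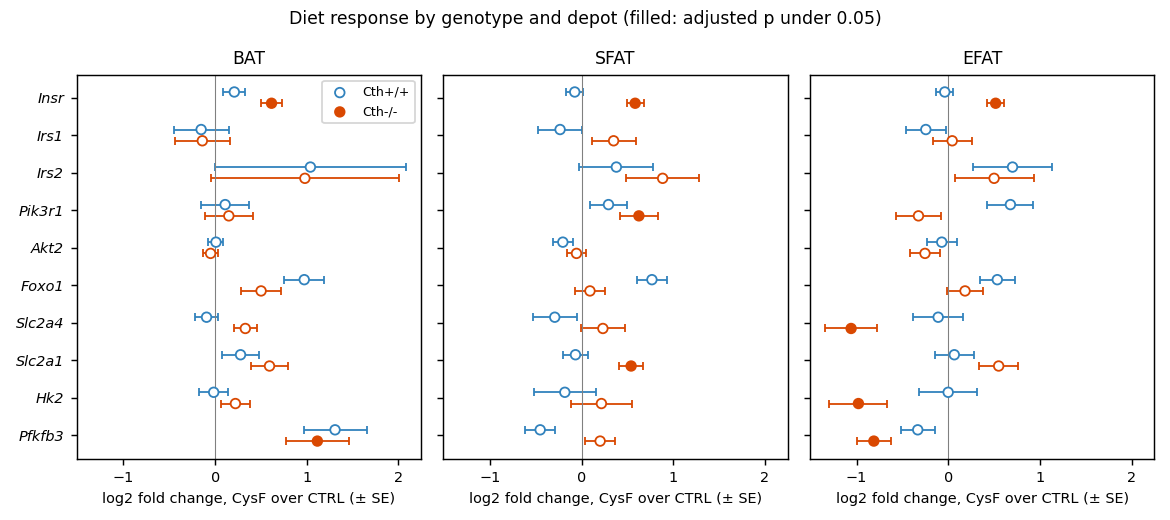
For each gene the point is the log2 fold change of CysF over CTRL (4 against 4 libraries) in 1 depot (panels) and 1 genotype (colour). Bars give its standard error from the fit of all 16 libraries of the depot. Filled points passed adjusted p under 0.05. Insr is filled in each panel for Cth-/- mice, Slc2a4 (-1.06), Hk2 (-0.98) and Pfkfb3 (-0.81) lie left of 0 in EFAT, and no Cth+/+ point is filled.

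Counted over the comparisons, the diet changed 2 of 10 members in Cth-/- BAT (Insr and Pfkfb3, both higher), where 18% of the genes tested changed, 7.81% higher and 10.2% lower. It changed 3 in Cth-/- SFAT (Insr, Pik3r1 and Slc2a1, all higher) against 25.4% of all genes, 11.8% higher and 13.6% lower. In Cth-/- EFAT it changed 4, Insr higher and Slc2a4, Hk2 and Pfkfb3 lower, against 28.8% of all genes, 14.5% higher and 14.3% lower. The share of members called was thus close to the background in BAT and SFAT, and 4 of 10 against 28.8% in EFAT. The members' median log2 change was 0.42 in BAT, 0.29 in SFAT and -0.10 in EFAT, beside -0.01, 0.03 and 0.07 for all genes tested. In Cth+/+ mice the diet changed none of the members by edgeR in any depot, where the background was 0.0826%, 0.0664% and 0% in BAT, SFAT and EFAT. At an unadjusted p under 0.05 there were 2, 2 and 2 members in these depots, and DESeq2 called 2, 1 and 0.

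On the control diet, loss of Cth changed none of the members by edgeR, where the background was 2.1%, 0.103% and 0.0464% in the order BAT, SFAT, EFAT. At an unadjusted p under 0.05 there were 5, 2 and 2, and DESeq2 called 1, 0 and 0. On the CysF diet Cth-/- differed from Cth+/+ in 1 of 10 members in BAT (Insr, higher by 0.77 ± 0.12, adjusted p = 0.00022), against 31.6% of all genes, 14.5% higher and 17.1% lower. In SFAT 4 differed, Insr (0.81 ± 0.09, adjusted p = 1.3e-05), Irs2, Slc2a1 and Pfkfb3, all higher, against 37.5% of all genes, 18.1% higher and 19.4% lower. In EFAT 5 differed, Insr (0.71 ± 0.10, adjusted p = 0.00012), Irs2 and Slc2a1 higher and Pik3r1 and Slc2a4 lower, against 39.7% of all genes, 20.1% higher and 19.6% lower. With the pseudogene split as a term only Insr kept this EFAT call (0.78, adjusted p = 0.00085), and Irs2 (0.79, adjusted p = 0.30), Slc2a1 (0.47, adjusted p = 0.22), Pik3r1 (-0.76, adjusted p = 0.12) and Slc2a4 (-0.56, adjusted p = 0.21) did not pass. With the epididymal score as a covariate, again only Insr passed (0.75, adjusted p = 0.00045), and the other 4 had adjusted p from 0.15 to 0.24. The comparisons of diet in Cth-/- mice and of genotype on the CysF diet share the Cth-/- CysF libraries and are not independent.

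The interaction of genotype and diet was past the threshold for none of the members in BAT (edgeR; 6.42% of all genes; DESeq2 also called none, and 2 had an unadjusted p under 0.05). It passed for Insr and Slc2a1 (higher) and Foxo1 (lower) in SFAT, against 21.7% of all genes, 9.39% higher and 12.4% lower. In EFAT it passed for Insr (higher), against 10.4%, 5.04% higher and 5.35% lower. This EFAT call was lost with the pseudogene split as a term. The diet response in Cth-/- mice differed between SFAT and BAT for none of the members by edgeR or DESeq2 (background 2.16%; 1 at an unadjusted p under 0.05). Between EFAT and BAT it differed for Slc2a4, Hk2 and Pfkfb3, all lower in EFAT, against 16.2% of all genes, 7.29% higher and 8.93% lower. Between EFAT and SFAT it differed for Slc2a4, lower in EFAT, against 4.38%, 1.04% higher and 3.35% lower.

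Among 56 genes running from the insulin receptor to AKT and FOXO, members included, the diet in Cth-/- mice raised 9 and lowered 3 of 53 tested in BAT, raised 13 and lowered 6 of 55 in SFAT, and raised 10 and lowered 8 of 55 in EFAT, with medians of 0.05, 0.09 and 0.04. The shares over all genes tested, against which this and the following lists are read, were 7.81% higher and 10.2% lower for BAT. For SFAT they were 11.8% higher and 13.6% lower, and for EFAT 14.5% higher and 14.3% lower. Grb14, an adaptor known to inhibit the receptor's kinase, fell in each depot, by 1.43 ± 0.20 in BAT, by 2.89 ± 0.29 in SFAT and by 1.72 ± 0.34 in EFAT (adjusted p from 1.2e-05 to 0.0025). Pik3ip1, an inhibitor of phosphoinositide 3-kinase, rose in BAT by 1.25 ± 0.19 and in EFAT by 1.34 ± 0.28. Trib3, a pseudokinase that binds AKT, rose in BAT by 1.13 ± 0.30, as did Akt1 by 0.70 ± 0.10, and Eif4ebp1 and Gsk3b fell there by 0.61 ± 0.10 and by 0.40 ± 0.11. In SFAT Trib1, Sh2b2 and Pde3b rose by 0.93, 0.82 and 0.81, and Pik3cd and Deptor, an inhibitor of mTOR, fell by 1.28 and 0.82. Pde3b encodes the phosphodiesterase through which insulin restrains lipolysis. In EFAT Igf1r and Grb10 rose by 1.06 and 0.89, and Deptor and Pik3cb fell by 1.45 and 0.83.

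Of 26 genes known as FOXO targets, 9 rose and 1 fell of 24 tested in BAT, 13 rose and 2 fell of 24 in SFAT, and 14 rose and 3 fell of 26 in EFAT. The medians were 0.24, 0.59 and 0.69. Bnip3, a mitophagy receptor, rose by 1.46 ± 0.28 in BAT, by 1.38 ± 0.14 in SFAT and by 1.03 ± 0.205 in EFAT. Klf15 rose by 1.33 ± 0.20 in BAT. Pck1 and Pnpla2, the gene of adipose triglyceride lipase, rose in SFAT by 1.16 ± 0.37 and 0.96 ± 0.13. In EFAT Pdk4, which switches off pyruvate dehydrogenase, rose by 2.28 ± 0.53 and Txnip, which restrains glucose uptake, by 1.44 ± 0.36. Bcl6 fell in each depot, by 1.60, 2.06 and 2.26 in BAT, SFAT and EFAT, and Gadd45a and Sesn3 fell in EFAT. Sesn3 also fell in SFAT. This list contains Insr and Irs2, and Insr is 1 of the genes that rose in each depot.

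Of 12 transcripts that insulin normally induces, most of them for fat synthesis, 8 fell and 1 rose in EFAT, 3 fell and 1 rose in BAT and 1 fell in SFAT, with medians of -1.86, -0.30 and -0.06. In EFAT Dgat2, which makes triglyceride, fell by 3.83 ± 0.46, Pnpla3 by 3.25 ± 0.38 and Acly, ATP citrate lyase, by 2.86 ± 0.76, while Mlxipl rose by 0.81 ± 0.24. Pnpla3 fell in BAT and SFAT too, by 1.42 and 1.33. Acly and Me1 fell in BAT by 0.65 and 1.03, and Lpl rose there by 1.06 ± 0.17.

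Among the glucose transporters Slc2a3, the high-affinity carrier GLUT3, rose in each depot, by 0.75 ± 0.24 in BAT, 1.57 ± 0.22 in SFAT and 0.89 ± 0.27 in EFAT. Slc2a13 and Slc2a10 fell in SFAT by 1.30 and 1.14 and in EFAT by 0.99 and 0.98, and the fructose carrier gene Slc2a5 fell in BAT by 1.36 ± 0.36. In all, 1 rose and 1 fell of 9 tested in BAT, 2 rose and 2 fell of 10 in SFAT, and 1 rose and 5 fell of 11 in EFAT. Of 25 genes of GLUT4 vesicle traffic, 2 rose in BAT, 2 rose and 2 fell in SFAT, and 2 rose and 6 fell in EFAT. Cav1, the caveolar coat gene, fell by 2.09 ± 0.22 in EFAT and by 1.03 ± 0.24 in SFAT, and the motor gene Myo1c fell in EFAT by 1.20 ± 0.16 but rose in BAT by 0.47 ± 0.12. Vamp2, the vesicle SNARE gene, rose in EFAT by 0.88 ± 0.22.

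Downstream of glucose entry, 6 glycolysis genes rose and 2 fell of 30 tested in BAT, 5 rose and 3 fell of 29 in SFAT, and 1 rose and 7 fell of 31 in EFAT. Ldha, lactate dehydrogenase A, rose in BAT by 0.60 ± 0.16 and fell in EFAT by 1.41 ± 0.35, directions like those of Pfkfb3. Ldhb, the other subunit, rose in BAT by 0.61 ± 0.12 and in SFAT by 1.32 ± 0.20, and Tpi1 fell in EFAT by 1.37 ± 0.22. Glycogen genes rose for 3 and fell for 1 of 20 in BAT, rose for 2 in SFAT, and fell for 8 with none rising in EFAT, where Gys2 fell by 2.73 ± 0.71 and Ppp1r3b fell by 3.12 ± 0.99. Gys2 rose in BAT by 0.55 ± 0.09, and Gys1 rose in BAT by 0.51 and in SFAT by 0.87. Among genes of pyruvate dehydrogenase and mitochondrial pyruvate, 3 of 15 rose in BAT and 8 rose and 1 fell in SFAT. In EFAT 2 of them rose and 1 fell. Pdk2 rose by 1.66 ± 0.22 in SFAT and 2.11 ± 0.22 in EFAT, Dlat and Dld, subunits of the dehydrogenase complex, rose in SFAT by 0.95 and 0.91, and Pdk3 fell in both white depots. Brown adipocyte markers moved in SFAT as well, with 7 of 8 called higher, none at 0 and sums of 159 to 354 CPM on the control diet and 360 to 1847 CPM on the CysF diet; their part in these SFAT values was not tested.

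The hypoxia response genes include Slc2a1, and Bnip3, which is also in the FOXO list. They rose for 5 of 19 in BAT with none falling, rose for 9 and fell for 1 of 20 in SFAT, and rose for 7 and fell for 4 of 20 in EFAT. Ddit4 rose in BAT by 1.35 ± 0.37 and in EFAT by 1.05 ± 0.35, Egln3 and Pgk1 rose in SFAT by 1.33 and 0.78, and Kdm3a rose in EFAT by 0.81 ± 0.23. P4ha1 fell in SFAT by 0.92 and in EFAT by 0.49. Ldha, which is also in this list, and Higd1a fell more in EFAT (-1.41 and -1.04), and Ldha rose in BAT (0.60). Of the genes named from these lists, the Cth-/- CTRL and CysF libraries overlapped for Slc2a5, Acly and Me1 in BAT. In SFAT they overlapped for Sh2b2, Pck1, Dlat and Pgk1. In EFAT they overlapped for Acly, Mlxipl, Sesn3, Vamp2, Ldha, Ppp1r3b, Ddit4 and Higd1a. In Cth+/+ mice no gene of any of these lists was called by edgeR in any depot.

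**Figure D3:**
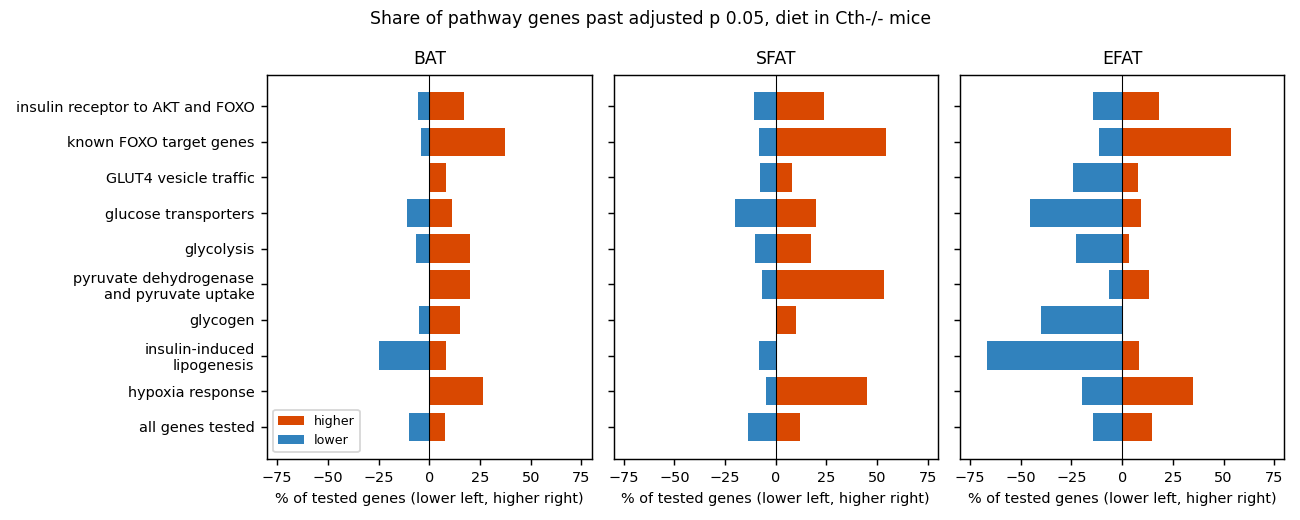
Bars give the percentage of tested genes of each list called higher (right of 0) or lower (left of 0) by the CysF diet in Cth-/- mice, 1 panel per depot; the bottom bar is all genes tested (7.81% higher and 10.2% lower in BAT). FOXO target genes lie to the right in each depot (9 of 24, 13 of 24 and 14 of 26 higher), and the lipogenesis list lies to the left in EFAT (8 of 12 lower).

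The members did not vary together as 1 block. Over the 48 libraries, with each depot's mean removed, Slc2a4 and Hk2 had a Pearson correlation of 0.86 in log2 CPM, and the values were 0.75, 0.82 and 0.91 within BAT, SFAT and EFAT (16 libraries each) and 0.88 over the 36 libraries outside the Cth-/- CysF groups. Akt2 correlated with Hk2 at 0.60 and with Slc2a4 at 0.58, whereas Slc2a4 and Slc2a1 had -0.43 and Slc2a4 and Irs2 -0.35. Irs1 and Irs2 had 0.65, and Insr had 0.63 with Irs2 and 0.61 with Slc2a1. These are descriptions over libraries that share depots, groups and possibly mice, and they carry no test.

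Among 8467 protein-coding genes that averaged 5 CPM or more in every depot, the genes most like Insr in this measure were Bnip3 (0.94) and Bnip3l (0.94), both mitophagy receptors. For Bnip3 the value was 0.95, 0.94 and 0.93 within the depots and 0.71 outside the Cth-/- CysF groups. The nearest to Slc2a4 were Mecr (0.90) and Prdx5 (0.90), to Hk2 Slc25a44 (0.87) and Slc2a4, and to Pfkfb3 Ffar4 (0.91), a receptor for long-chain fatty acids, and Adcy6 (0.76). For Ffar4 the value was 0.97 within BAT, 0.82 within SFAT and 0.68 within EFAT. Foxo1 was nearest to Zhx3 (0.87) and Zbtb16 (0.86), Irs2 to Zfp655 (0.84) and Ccnl1 (0.83), and Slc2a1 to Adgrg1 (0.81) and Kdm3a (0.80). Akt2 was nearest to Ppip5k1 (0.77) and Nkiras2 (0.73), Irs1 to B3galt2 (0.72) and Podn (0.67), and Pik3r1 to Plpp6 (0.69) and Maob (0.63).

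**Figure D4:**
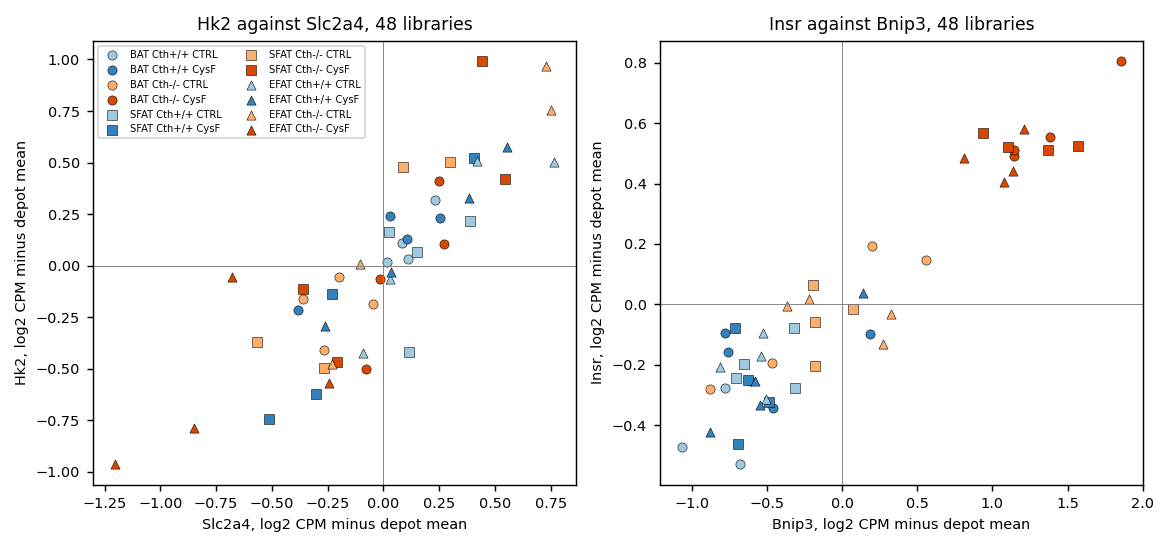
Each point is 1 of 48 libraries, with log2 CPM minus the depot mean on both axes; colours give genotype and diet, symbols the depot. Left, Hk2 against Slc2a4 (correlation 0.86), with the Cth-/- CysF libraries of EFAT below 0 on both axes; right, Insr against Bnip3 (0.94), with the 12 Cth-/- CysF libraries of all depots at the upper right.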

How the data were processed

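Reads were processed by the submitters with FastQC, STAR, Picard and RSEM on build mm10, per the submitters' processing notes, which give no versions or strand setting here. The deposited table holds RSEM expected counts per gene for 48 libraries. They were rounded to whole numbers, scaled with TMM factors and tested in R 4.3.3 with edgeR 4.0.16, by its quasi-likelihood F test on the 4 groups of each depot. Between depots, 1 fit covered all 48 libraries. Genes were kept by filterByExpr (minimum count 10, minimum total 15), and p-values were Benjamini-Hochberg adjusted over all genes tested, with a threshold of 0.05. Standard errors are the log2 fold change divided by the square root of F. CPM values are TMM-scaled. The steps were tested on simulated data.

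The members and gene lists were chosen with earlier results of these data known. Besides the members, the text names, per list and depot, at most 3 called genes in each direction, by size of change, at a mean of at least 1 CPM. Likeness was measured on log2(CPM + 0.5). Alternatives were RLE scaling, no filter on low counts, robust dispersion, DESeq2 1.42.0, only the groups compared, the pseudogene split as a term or within it, a muscle score, a replicate block between depots, and leaving out single libraries. In comparisons between depots, the libraries that share a replicate number were left out together. Library totals, the libraries with the pseudogene alone and an epididymal score were added after seeing the data.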

Additional observations from a re-analysis of the deposited data

Results flagged for a closer look

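In 7 of 120 groups of 4 libraries, 1 library of a member stood apart from the other 3 by more than the critical value of Dixon's test; chance gives about 1 in 20. Irs2 was highest in replicate 15 of Cth-/- CTRL BAT at 159.3 CPM, in replicate 10 of Cth+/+ CysF SFAT at 76.89 CPM and in replicate 1 of Cth+/+ CTRL EFAT at 49.65 CPM. Pik3r1 was highest in replicate 20 of Cth-/- CysF BAT at 265.1 CPM, in replicate 11 of Cth+/+ CysF SFAT at 541.7 CPM and in replicate 14 of Cth-/- CTRL EFAT at 632.9 CPM. Pfkfb3 was lowest in replicate 13 of Cth-/- CTRL SFAT at 653.8 CPM.

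Diet responses differed between the genotypes by the edgeR interaction in SFAT for Insr (0.66, adjusted p = 0.0029), Slc2a1 (0.61, adjusted p = 0.033) and Foxo1 (-0.68, adjusted p = 0.047), and in EFAT for Insr (0.56, adjusted p = 0.022). In Cth-/- mice the response differed between EFAT and BAT for Slc2a4 (-1.45), Hk2 (-1.27) and Pfkfb3 (-1.98), and between EFAT and SFAT for Slc2a4 (-1.34).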

How the results depend on the processing

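Of 41 gene values past the threshold, 528 of their 693 alternatives kept direction and call and 163 lost the call; where a call was lost the cause was not tested. With library totals as the scaling, Akt2 was reversed between BAT and SFAT (-0.554) and BAT and EFAT (-0.514), and Irs1 between BAT and EFAT (-0.852). The counts of members called moved as follows. With library totals, the diet in Cth-/- mice changed 0 members in BAT and 0 in SFAT (2 and 3 with TMM), the SFAT interaction held 1, the genotype on the CysF diet in EFAT 3, and the EFAT against SFAT response and the SFAT against EFAT level 0 each. DESeq2 called 4 for diet in Cth-/- BAT, 2 for diet in Cth+/+ BAT, 1 for diet in Cth+/+ SFAT, 1 for genotype on the control diet and 2 on the CysF diet in BAT, 2 for the EFAT interaction and 3 for the EFAT against SFAT response. Without the low-count filter there were 1 for the SFAT interaction, 3 for genotype on the CysF diet in EFAT, 0 for the EFAT interaction and 0 for the SFAT against EFAT level. With only the groups compared there were 3 for genotype on the CysF diet in EFAT, 0 for the EFAT against SFAT response and 2 for the SFAT against EFAT level. With the pseudogene split as a term, EFAT gave 2 for diet in Cth-/- mice, 1 for genotype on the CysF diet and 0 for the interaction, the EFAT against SFAT response and the SFAT against EFAT level. In the libraries without the pseudogene there were 2 and 2 for genotype on the control and the CysF diet in BAT, 1 for the SFAT interaction, 1 for the EFAT against BAT response, and 0 for diet in Cth-/-, genotype on the CysF diet and interaction in EFAT, the EFAT against SFAT response and the SFAT against EFAT level. In the libraries with it there were 2 for genotype on the CysF diet in BAT and 0 for diet in Cth-/- EFAT, with 1 library in a group. A muscle score left 1 for diet in Cth-/- BAT, and an epididymal score 1 for genotype on the CysF diet in EFAT.

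Leaving out single libraries gave 1 to 2 for diet in Cth-/- BAT, 0 to 1 for diet in Cth+/+ BAT and 1 to 2 for genotype on the CysF diet in BAT. It gave 1 to 3 for the SFAT interaction, 1 to 5 for genotype on the CysF diet in EFAT and 0 to 2 for the EFAT interaction. Between depots, the libraries that share a replicate number were left out together. That gave 0 to 1 for the EFAT against SFAT response and 0 to 1 for the SFAT against EFAT level. Same-numbered libraries of different depots correlated above 0.1 in 8 (EFAT and BAT), 13 (EFAT and SFAT) and 11 (SFAT and BAT) of 16 pairs, and best with their own number in 8, 13 and 11. In that order the median correlation was 0.102, 0.408 and 0.398 for equal numbers and -0.051, -0.202 and -0.139 for unequal numbers. Values were deviations from the mean of the 4 libraries of a group. That centring by itself pushes unequal pairs below 0 where equal pairs lie above it. Not every pair passed and the labels name no mice, so the numbers were not taken as pairs. Whether equal numbers share a mouse is not known, and the main tests between depots treat all libraries as independent. A replicate block gave 4 members for the EFAT against SFAT response (1 without it), adding Pik3r1 (-0.98, adjusted p = 0.007), Hk2 (-1.17, adjusted p = 0.0073) and Pfkfb3 (-1.08, adjusted p = 0.042) to Slc2a4, and, over all genes, 892, 4231 and 2234 calls for SFAT against BAT, EFAT against BAT and EFAT against SFAT (397, 2976 and 804 without it).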
